A study of Mus musculus with 10 samples.

Results

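Transcripts of heat shock proteins and DnaJ co-chaperones were measured in regulatory T cells (Tregs) of the mouse spleen. The set held 78 of the 19938 genes measured: every gene whose symbol starts with Hsp followed by a letter or digit, with Hsf followed by a digit, or with Dnaja, Dnajb or Dnajc, each read from its brightest probe set. By what is known of the proteins, 7 were inducible cytosolic chaperones and 22 constitutive chaperones and J proteins, most of the cytosol and nucleus. Another 11 belonged to the endoplasmic reticulum (ER), 9 to mitochondria and 4 were heat shock transcription factors. A further 4 shared the name without being chaperones (Hspg2, the proteoglycan perlecan; Hspb11, a subunit of intraflagellar transport; Hspbap1; Hsf2bp), and 21 were placed in none of these classes. Hspa1b was read only by a probe set shared with Hspa1a, and Hspa1b, Hsp90ab1 and Hsf1 were not analysed here.

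All cells came from spleens of female C57BL/6 mice aged 9 to 14 weeks and were sorted on CD4 and on a red fluorescent reporter of Foxp3, the transcription factor that defines Tregs. The 4 groups were FR1 (CD62Lhi CD69- Klrg1-, 2 arrays), FR2 (CD62Llo CD69- Klrg1-, 2 arrays), FR3 Klrg1- (CD62Llo CD69+ Klrg1-, 4 arrays) and FR3 Klrg1+ (CD62Llo CD69+ Klrg1+, 1 array). CD62L is a homing receptor for lymphoid tissue that is kept by resting cells, CD69 is an early activation and retention marker, and Klrg1 is an inhibitory receptor of late effector cells. The labels call the replicates biological but do not say how many mice stood behind an array or whether mice were pooled, so the p-values measure the spread between these arrays. One more array carried a title that went against its own marker label, and it entered no comparison.

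Heat shock proteins are molecular chaperones named for their induction by heat. Hsp70 proteins (the Hspa genes) bind exposed hydrophobic stretches of unfolded proteins, J proteins (the Dnaj genes) deliver these clients and trigger the ATP hydrolysis that locks them in place, and Hsp90 proteins take over a later stage of folding for kinases and receptors. Each compartment has its own machinery: heat shock factors drive the inducible cytosolic genes through heat shock elements in their promoters, the unfolded protein response drives ER chaperones such as Hspa5 (BiP), and mitochondria use Hspa9, Hspd1 (Hsp60) and its lid Hspe1 (Hsp10). Activated T cells make large amounts of protein and carry abundant chaperone transcripts.

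Before any result, the arrays themselves fell into sets that the labels do not describe. Over all 19938 genes the arrays of FR1, FR2 and FR3 Klrg1- replicates 1 and 2 correlated with each other at r = 0.982 to 0.995, and those of FR3 Klrg1- replicates 3 and 4, FR3 Klrg1+ and the ungrouped array at r = 0.98 to 0.989. Between these sets r was 0.925 to 0.946, also within FR3 Klrg1- (0.94 to 0.946), although its 4 arrays carry 1 label. Median intensity was 6.15 to 6.31 on the log2 scale on every array. A list of 6 T cell markers averaged 11.66 to 11.98 in the first set and 11.51 to 11.58 in the second, Treg markers 11.16 to 11.40 and 11.06 to 11.12, and every list for another cell type lay between 4.37 and 7.19. Single T cell markers differed more than their mean: on the 6 arrays of the first set and the 3 grouped arrays of the second Cd4 read 11.04 to 11.65 and 9.86 to 10.10, Cd5 11.48 to 11.62 and 10.56 to 10.80, and Cd3d 10.87 to 11.53 and 12.01 to 12.31. Cd69, the transcript of a marker used in the sort, read 11.86 to 12.41 on all 6 arrays of the first set, including those sorted as CD69-, and 9.73 to 10.24 in the second. Gate comparisons are therefore given within a set, and FR3 Klrg1- replicates 1 and 2 are compared with replicates 3 and 4 as the difference between sets. The sets were read from the arrays themselves and the labels do not say what separates them, so the tests between them give the size of each gene's difference against the spread within sets, and what lies behind the difference was not tested.

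Levels are intensities on the log2 scale, where a difference of 1 is a factor of 2, and probe sets of different genes differ in brightness for reasons of probe sequence, so levels are compared between arrays and not between genes. The mean of the 9 grouped arrays ran from 6.21 to 11.92 across the 7 inducible members, from 6.46 to 12.68 across the 22 constitutive members, from 7.25 to 11.70 across the 11 ER members and from 7.58 to 10.92 across the 9 mitochondrial members. The means of the 21 unclassed members ran from 3.81 to 7.80. On every grouped array 5 members (Hsf3, Dnajb3, Dnajb7, Dnajc5b and Hspa1l) read below the 25th percentile of all genes.

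Between the array sets within FR3 Klrg1-, 42 of the 78 members differed at an adjusted p under 0.05 (limma, Benjamini-Hochberg over all genes), 16 higher and 26 lower in replicates 1 and 2; without FR3 Klrg1- replicate 2, 9 were higher and 22 lower. The share, 53.8%, stands against 38.3% of all genes tested (19.3% higher, 18.9% lower). Because the members' probe sets were brighter than those of most genes, the same count was also taken among the 11963 genes at or above the 40th percentile of mean intensity, where 36 of 64 members (56.2%; 15 higher, 21 lower) and 56.3% of all genes passed (32.7% higher, 23.7% lower). The number of chaperone genes that differed was thus near the background for genes of that brightness. The RNA is of sorted cells in bulk, so fewer cells with a transcript and less of it per cell cannot be told apart. The direction split by class, but the classes were drawn with earlier results of these data known, so the split is a description. On the brightest probe sets 5 of 7 inducible members were higher and 0 lower at the adjusted or the unadjusted threshold. At an unadjusted p under 0.05, 22.4% of all genes were higher and 23.1% lower. The other probe set of Dnaja1, an inducible member, was lower (-0.59, limma adjusted p = 0.00546). Of 22 constitutive members 3 were higher and 10 lower, and ER members were split 4 and 4 of 11. Mitochondrial members were 0 higher and 4 lower of 9. Without FR3 Klrg1- replicate 2, 2 of 7 inducible members (Dnajb1 and Hspa1a) and 2 of 11 ER members were called higher. The median difference was 0.61 for the inducible members, -0.28 for the constitutive, -0.21 for the ER and -0.30 for the mitochondrial members, against -0.02 for all genes.

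**Figure D1:**
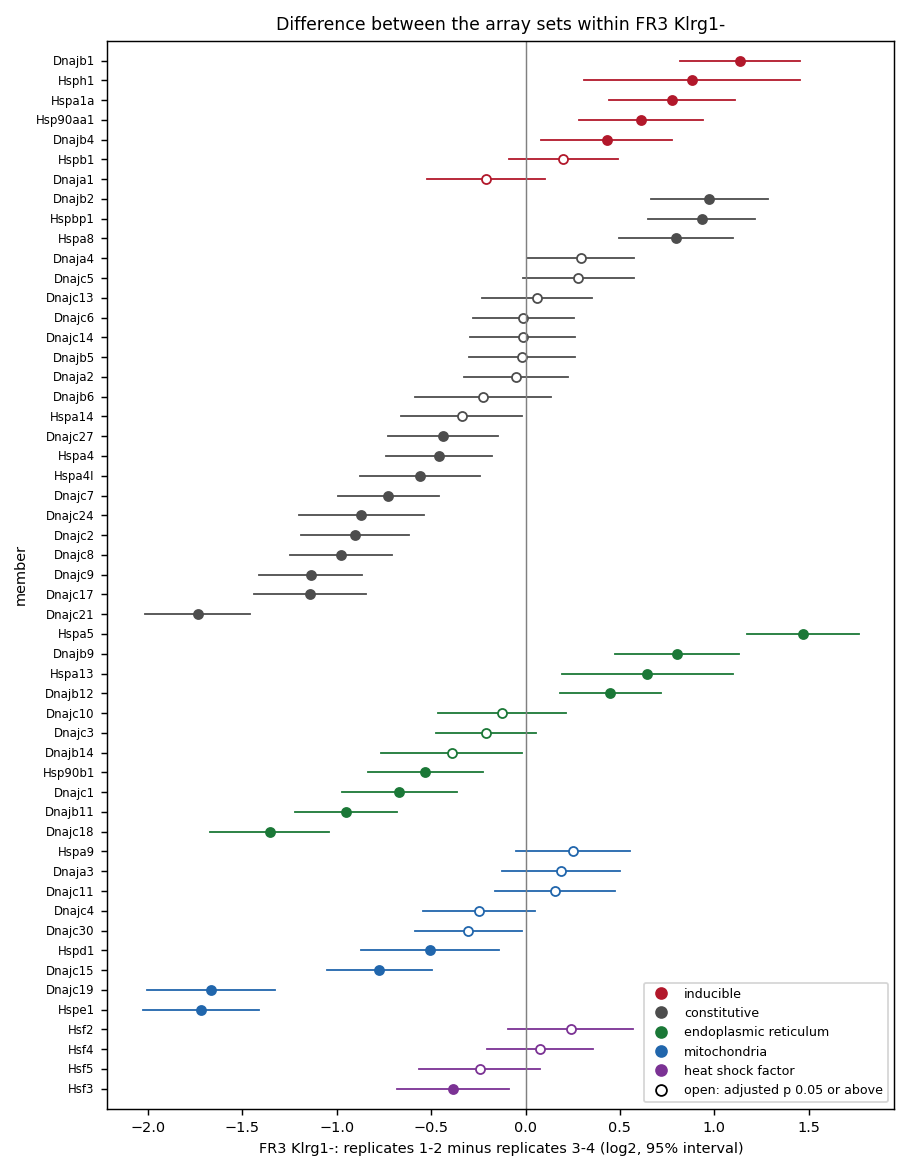
Difference between FR3 Klrg1- replicates 1-2 and replicates 3-4 (x axis, log2) for the 53 members of the 5 chaperone and factor classes (y axis), coloured by class, with 95% intervals of the limma fit as lines. Filled points passed an adjusted p of 0.05: 5 of 7 inducible members lie to the right, 4 of 9 mitochondrial members lie to the left, and the ER members lie on both sides.

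Among the inducible members, Dnajb1, the J protein that works with inducible Hsp70, read 9.25 and 9.21 in FR3 Klrg1- replicates 1 and 2 and 8.26 and 7.93 in replicates 3 and 4. It read 9.53 and 9.75 in FR1, 9.32 and 9.54 in FR2 and 7.73 in FR3 Klrg1+. All 6 arrays of the first set lay above all 3 grouped arrays of the second, whatever their gate. Within FR3 Klrg1- it was 1.13 ± 0.15 higher (SE) in replicates 1 and 2, a 2.19-fold difference (limma, adjusted p = 2.15e-05). Hspa1a, the stress-inducible cytosolic Hsp70, read 6.71 and 6.84 against 5.85 and 6.15 in FR3 Klrg1-, with 6.66 and 6.59 in FR1, 6.67 and 7.09 in FR2 and 6.21 in FR3 Klrg1+. Its difference was 0.78 ± 0.16 (limma, adjusted p = 0.00101), and again no array of the first set fell to the level of the second. The probe set of Hspa1a stood at percentile 53.2 of mean intensity, and its near-identical neighbour Hspa1b may contribute to its signal.

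Hsp90aa1, the inducible cytosolic Hsp90, read 12.14 and 12.38 against 11.79 and 11.51, with 11.95 and 12.07 in FR1, 11.82 and 12.14 in FR2 and 11.53 in FR3 Klrg1+. The difference was 0.61 ± 0.15 (limma, adjusted p = 0.00513), and the lowest array of the first set stood just above the highest of the second. Hsph1, a large Hsp70 relative (Hsp110) that exchanges the nucleotide of Hsp70, read 9.64 and 10.22 against 9.00 and 9.10. In FR1 it read 9.12 and 9.90, in FR2 8.95 and 9.79 and in FR3 Klrg1+ 8.97, so the lower array of FR2 reached the level of the second set. Its difference of 0.88 ± 0.27 (limma, adjusted p = 0.0164) had the largest error of the 78 members. Dnajb4, a close relative of Dnajb1, differed by 0.43 ± 0.16 (limma, adjusted p = 0.0484), from 9.33 and 9.32 to 9.00 and 8.79. Dnaja1 differed by -0.21 ± 0.15 (limma, adjusted p = 0.294) and Hspb1, the small heat shock protein Hsp27, by 0.20 ± 0.13 (adjusted p = 0.271). Neither passed on the brightest probe set, while the other probe set of Dnaja1 passed at -0.59 (limma, adjusted p = 0.00546). The calls of Hsph1 and Hsp90aa1 did not hold without FR3 Klrg1- replicate 2 and that of Hsph1 not without replicate 3, while Dnajb4 lost its call under 8 of 14 alternatives.

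**Figure D2:**
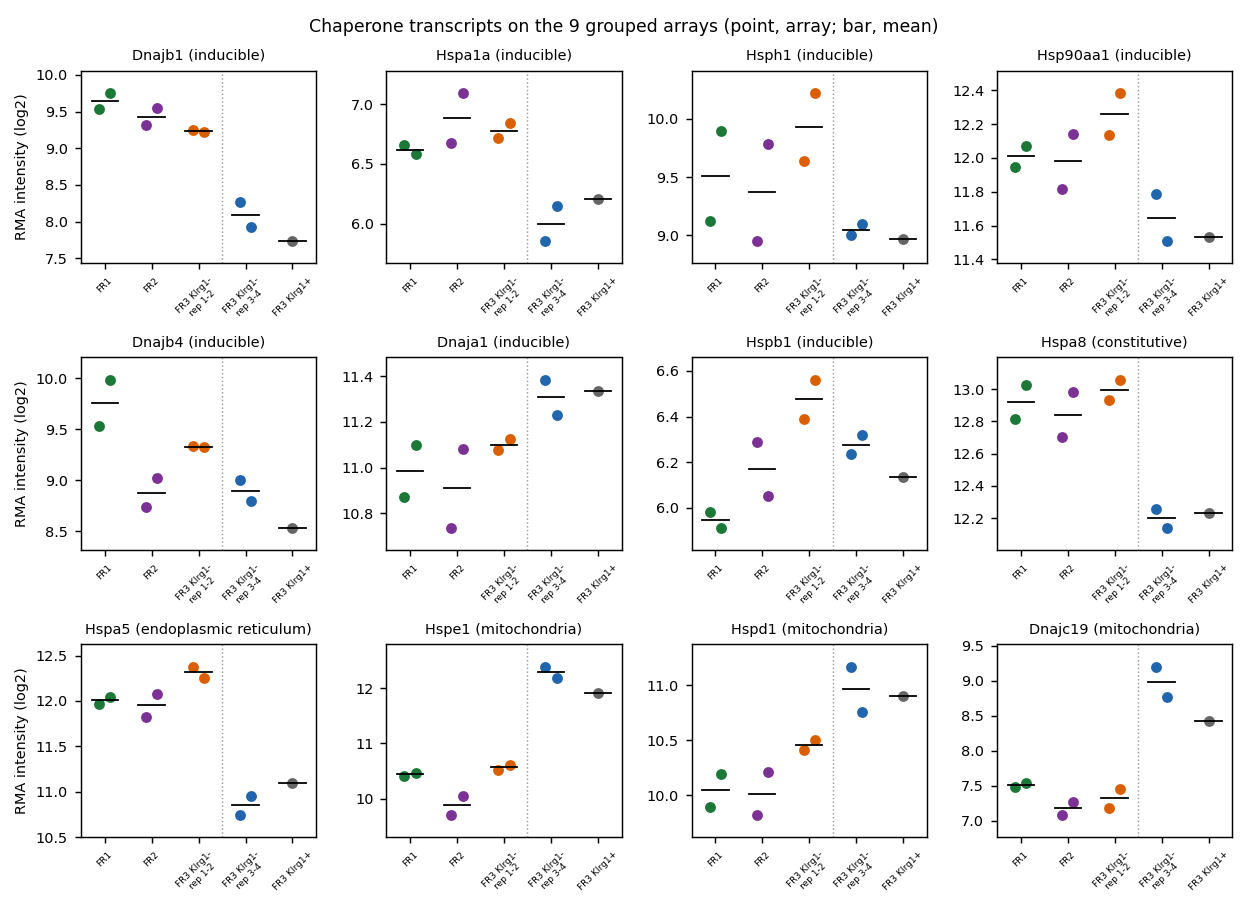
Intensity on the log2 scale (y axis, own range in each panel) of 12 members on the 9 grouped arrays by group (x axis); points are arrays, bars group means, and the dotted line parts the first array set from the second. Dnajb1, Hspa1a, Hsp90aa1, Hspa8 and Hspa5 lie higher left of the line on every array, and Hspe1, Hspd1 and Dnajc19 lie higher right of it on every array.

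Heat shock factors bind repeats of the unit GAA and its complement TTC. In RefSeq promoters of build GRCm38.p6 (250 bases before to 50 after a start site; 64 of the 78 members had at least 1 window, 81 windows in all), a strict 3-unit heat shock element, GAA, TTC and GAA or TTC, GAA and TTC with 2 bases between units, searched on both strands, was found in 0.603% of 32851 windows. It lay in 6 of the 81 member windows (7.41%), those of Dnajb6, Hspd1, Hspe1 and Hsph1. Windows of Hspd1 and Hspe1 overlap and hold the same stretch, so these windows are not all separate. A 2-unit element of 1 GAA and 1 TTC in either order with the same spacing, which the longer motif contains, lay in 22.2% of member windows and 15.1% of all windows. Of the inducible members, Dnaja1, Dnajb4, Hspa1a, Hspb1 and Hsph1 held the 2-unit element, and only Hsph1 the 3-unit element. No window of Dnajb1 held either, and Hsp90aa1 had no window. An example of each is shown from an inducible member, because heat shock factors act on this class through such elements. Capitals mark the match. The Hsph1 stretch is chr5:149636287-149636308 on the minus strand, with the 3-unit match 36 to 48 bases after a start site. The Hspa1a stretch is chr17:34972223-34972290 on the minus strand, with the 2-unit match 104 to 97 bases before the start.
Hsph1: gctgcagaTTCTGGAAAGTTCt
Hspa1a: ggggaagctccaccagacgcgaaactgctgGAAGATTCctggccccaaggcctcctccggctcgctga
A match describes the letters in the window and was not tested as a binding site.

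Of the heat shock factors, Hsf2 read 7.25 to 8.11 across the 9 grouped arrays and differed by 0.24 ± 0.15 between the sets (limma, adjusted p = 0.254). Hsf4 (0.08) and Hsf5 (-0.24) did not pass either, and Hsf3, called at -0.38 ± 0.14 (limma, adjusted p = 0.0413), read 2.40 to 3.00, below the 25th percentile of all genes on every array. Its call was lost under 8 of 13 alternatives, and its difference was -0.25 without FR3 Klrg1- replicate 1 and -0.22 after quantile normalisation.

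Among the constitutive members, Hspa8 (Hsc70), the housekeeping Hsp70 of the cytosol, read 12.93 and 13.06 in FR3 Klrg1- replicates 1 and 2 and 12.26 and 12.14 in replicates 3 and 4. It read 12.81 and 13.03 in FR1, 12.70 and 12.98 in FR2 and 12.23 in FR3 Klrg1+, so the sets did not overlap. The difference was 0.80 ± 0.14 (limma, adjusted p = 0.000347). Only 2 other constitutive members were higher in replicates 1 and 2: Dnajb2, a J protein that directs clients to the proteasome (0.97 ± 0.14, adjusted p = 7e-05), and Hspbp1, a nucleotide exchange factor of Hsp70 (0.93 ± 0.13, adjusted p = 4.3e-05).

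The 10 constitutive members that were lower in replicates 1 and 2 included J proteins with roles in the nucleus and at the ribosome. Dnajc21, which acts in the maturation of the large ribosomal subunit, read 8.03 and 8.02 against 9.79 and 9.74, with 8.05 to 8.30 in FR1 and FR2 and 9.57 in FR3 Klrg1+. The difference of -1.74 ± 0.13 (limma, adjusted p = 9.08e-08) left a gap of more than 1 log2 unit between the sets. Dnajc9, a histone chaperone (-1.14 ± 0.13), Dnajc17, linked to splicing (-1.14 ± 0.14), Dnajc8, also linked to splicing (-0.98 ± 0.13), Dnajc2, the J protein of the ribosome-associated complex (-0.90 ± 0.13), and Dnajc24, which acts in diphthamide synthesis (-0.87 ± 0.16), were lower as well. Dnajc7, a co-chaperone of both Hsp70 and Hsp90, read 10.25 and 10.17 against 10.93 and 10.95 (-0.73 ± 0.13, limma adjusted p = 0.000268). Hspa4 and Hspa4l, both Hsp110 relatives like Hsph1, were lower by -0.46 ± 0.13 and -0.56 ± 0.15, in the direction opposite to Hsph1. The call of Hspa4 did not hold without FR3 Klrg1- replicate 2 or 3. Dnaja2, the housekeeping partner of Hspa8, differed by -0.05 ± 0.13 (adjusted p = 0.806), and Dnajb6, which holds the 3-unit element in its window, by -0.22 ± 0.17 (adjusted p = 0.328).

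In the ER, Hspa5 (BiP), the Hsp70 of that compartment, read 12.38 and 12.26 in FR3 Klrg1- replicates 1 and 2 and 10.74 and 10.95 in replicates 3 and 4. It read 11.97 and 12.05 in FR1, 11.83 and 12.07 in FR2 and 11.09 in FR3 Klrg1+. The difference of 1.47 ± 0.14 (2.77-fold, limma adjusted p = 8.36e-07) was the largest upward difference of any member. Hsp90b1 (Grp94), the Hsp90 of the ER, went the other way, with 11.31 and 11.27 against 11.92 and 11.72, 10.75 to 11.18 in FR1 and FR2 and 11.85 in FR3 Klrg1+. It was lower by -0.53 ± 0.14 (limma, adjusted p = 0.0079), a call that did not hold without FR3 Klrg1- replicate 2 or 3.

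The J proteins of the ER were split in the same way. Dnajb9, which helps in the degradation of misfolded proteins and in restraining the sensor Ire1, was 0.80 ± 0.15 higher in replicates 1 and 2 (limma, adjusted p = 0.000652), and Dnajb12, a J protein of the ER membrane, 0.45 ± 0.13 higher. Dnajb11, a J protein that serves Hspa5 in folding, read 8.93 and 8.98 against 9.95 and 9.85 and was lower by -0.95 ± 0.13 (limma, adjusted p = 2.33e-05). Dnajc1 (-0.67 ± 0.14) and Dnajc18 (-1.35 ± 0.15), both J proteins of the ER membrane, were lower too. Dnajc3 (-0.21 ± 0.12, adjusted p = 0.206), an inhibitor of the kinase Perk, and Dnajc10 (-0.12 ± 0.16, adjusted p = 0.582), a disulphide reductase, did not pass. Hspa13, a truncated Hsp70 of microsomes, was 0.64 ± 0.21 higher (limma, adjusted p = 0.0252), but lost its call without FR3 Klrg1- replicate 1, 2 or 4 and after quantile normalisation, and was 0.30 higher without replicate 4.

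Hspa5 and Hsp90b1 share a promoter motif and differed in opposite directions, and the part of the motif was not tested. The ER stress element, CCAAT and CCACG with 9 bases between them, searched on both strands, lay in 0.119% of all windows and in 3.7% of member windows, those of Dnajc3, Hsp90b1 and Hspa5. The Hspa5 stretch is chr2:34771995-34772073 on the plus strand, with the match 65 to 47 bases before the start. The Hsp90b1 stretch is chr10:86705503-86705686 on the minus strand, with 2 matches in opposite orientation between 212 and 89 bases before the start. They are printed because the pair carries the same letters, shown in capitals.
Hspa5: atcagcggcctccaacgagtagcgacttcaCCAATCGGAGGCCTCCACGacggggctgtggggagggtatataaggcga
Hsp90b1: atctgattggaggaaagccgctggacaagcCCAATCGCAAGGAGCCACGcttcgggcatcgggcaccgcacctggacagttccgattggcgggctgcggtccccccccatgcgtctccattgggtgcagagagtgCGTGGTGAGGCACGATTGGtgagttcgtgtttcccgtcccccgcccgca
Dnajc3, the remaining gene with this motif, did not pass in either direction.

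In mitochondria, Hspe1 (Hsp10), the lid of the Hsp60 folding chamber, read 10.52 and 10.62 in FR3 Klrg1- replicates 1 and 2 and 12.39 and 12.19 in replicates 3 and 4. It read 10.42 and 10.47 in FR1, 9.71 and 10.05 in FR2 and 11.91 in FR3 Klrg1+. Every array of the second set stood more than 1 log2 unit above every array of the first. The difference was -1.72 ± 0.14 (3.29-fold lower in replicates 1 and 2, limma adjusted p = 2.71e-07). Hspd1 (Hsp60), the chamber itself, read 10.42 and 10.50 against 11.17 and 10.76, with 9.82 to 10.21 in FR1 and FR2 and 10.90 in FR3 Klrg1+. On the brightest probe set its difference of -0.51 ± 0.17 (limma, adjusted p = 0.0284) did not hold without FR3 Klrg1- replicate 1, 2 or 3. It was -0.30 without replicate 3. The dimmer probe set of Hspd1 differed by -1.79 (limma, adjusted p = 2.87e-07).

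Dnajc19, a subunit of the import motor at the inner membrane, read 7.18 and 7.46 against 9.20 and 8.77 (-1.66 ± 0.16, limma adjusted p = 9.55e-07). Dnajc15, its close relative at the same membrane, read 7.70 and 7.49 against 8.37 and 8.37 (-0.77 ± 0.13, adjusted p = 0.000213). Here FR1 read 8.32 and 8.23, as high as the second set, so Dnajc15 did not separate the sets outside FR3 Klrg1-. Hspa9 (mortalin), the Hsp70 of the matrix, differed by 0.25 ± 0.14 (adjusted p = 0.184) and Dnaja3, its J protein, by 0.19 ± 0.15 (adjusted p = 0.347).

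Hspd1 and Hspe1 are transcribed head to head from 1 promoter region on chromosome 1. Their RefSeq start sites lie at position 55087932 on the minus strand and position 55088148 on the plus strand, 216 bases apart, and the windows of both genes share 285 bases. The stretch below, chr1:55088053-55088082 on the plus strand, holds 2 overlapping 3-unit heat shock elements, 89 to 72 bases before the Hspe1 start, and lies in the windows of both genes.
Hspe1 and Hspd1: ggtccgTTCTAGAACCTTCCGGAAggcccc
Hsph1 holds the same kind of motif, 36 to 48 bases after a start site. Hspe1 and Hspd1 were lower and Hsph1 higher in replicates 1 and 2, and the part of the motif was not tested.

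Outside these classes, Hspb11 showed the largest difference of the 78 members. It read 5.93 and 6.42 against 8.88 and 8.44, with 6.14 to 6.71 in FR1 and FR2 and 8.33 in FR3 Klrg1+ (-2.48 ± 0.17, 5.59-fold, limma adjusted p = 5.44e-08). It is a member by its symbol only. Dnajb13, a component of cilia and sperm tails, was lower by -0.84 ± 0.14, Dnajb7 by -1.40 ± 0.14 at levels of 3.11 to 4.98 that lie below the 25th percentile, and Dnajc16 was 0.71 ± 0.16 higher (limma, adjusted p = 0.0024), or 0.43 higher without FR3 Klrg1- replicate 3.

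Several of these genes have near-identical copies elsewhere in the genome that probes can also match, and 8 members had more than 1 probe set, so their values are uncertain to that degree. Each probe set was tested in a limma fit over all probe sets with 1 gene symbol. For Hspa8 the further probe sets differed by 0.80 and 1.07, for Hsp90aa1 by 0.59 and 1.14 and for Hspe1 by -1.56, each in the direction of the brightest. For Hspd1 the other probe set differed by -1.79 (limma, adjusted p = 2.87e-07), against -0.51 for the brightest. For Dnaja1 the other probe set passed, at -0.59 (limma, adjusted p = 0.00546), and the brightest did not. Which probe set reads the gene's own locus was not examined. Dnajc13, an endosomal J protein, had 15 probe sets with differences from -1.78 to 1.13, of which 3 were higher and 7 lower in replicates 1 and 2. In the 3 gate comparisons within the first set the same 15 probe sets stayed between -0.16 and 0.32 and 0 passed.

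**Figure D3:**
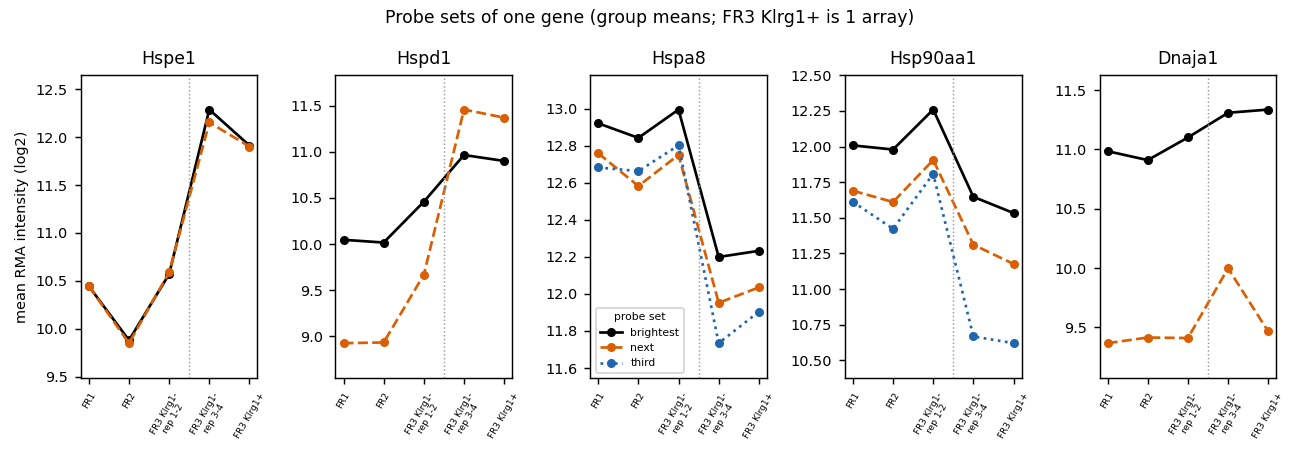
Mean intensity on the log2 scale (y axis, own range in each panel) by group (x axis) for each probe set of 5 members with several; FR3 Klrg1+ is 1 array, and the dotted line parts the array sets. Probe sets of Hspe1, Hspa8 and Hsp90aa1 move in the same direction across the line, while the dimmer probe set of Hspd1 moves by 1.79 and the brightest by 0.51.

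Other genes of these pathways gave a further view of the difference between sets. Beside the shares of called genes given here stand 38.3% of all genes and 56.3% of those at or above the 40th percentile. Of 21 genes of ER folding and the unfolded protein response outside the naming pattern, 14 were higher and 2 lower in replicates 1 and 2 (76.2% called), with a median of 0.61. They included P4hb (1.65), a disulphide isomerase, Herpud1 (1.64), of ER-associated degradation, Calr (1.08), a lectin chaperone, and Xbp1 (1.03), a transcription factor of the response, while Ddit3 (-1.12) and Manf (-0.70) were lower. Of the 8 subunits of the cytosolic chaperonin TRiC, 5 were higher and 0 lower (62.5%), with Cct4 at 1.45 and Cct7 at 1.37 (at an unadjusted p under 0.05, 6 higher and 0 lower). Co-chaperones of Hsp70 and Hsp90 were split, 5 higher and 6 lower of 20 (55%, near the share for genes of that brightness), from Unc45a at 1.71 and Sgta at 1.37 to Bag5 at -1.43 and Bag1, a nucleotide exchange factor of Hsp70, at -2.47. Of 7 other mitochondrial folding genes, Lonp1 (1.08), a protease, and Trap1 (0.89), the mitochondrial Hsp90, were higher and 0 were lower (28.6% called, with 2 lower at an unadjusted p under 0.05). The values of this paragraph are from the same limma fit, and each named gene passed an adjusted p of 0.05.

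Between the array sets, immediate early genes differed in the direction of most inducible chaperones. Immediate early genes are transcription factors and regulators that cells switch on within minutes of a stimulus. In FR3 Klrg1- replicates 1 and 2, 13 of 14 (92.9%) were higher and 0 lower, against 19.3% and 18.9% of all genes. Their median difference was 2.14, and 1 was lower at an unadjusted p under 0.05. Nr4a1 was 4.19, Fosb 3.75, Fos 3.18 and Junb 3.03 higher. The mean of the 14 genes was 10.38 to 10.74 on the 6 arrays of the first set and 8.46 to 8.64 on the 3 grouped arrays of the second, and the mean of the 7 inducible chaperones was 8.93 to 9.38 and 8.64 to 8.79. Within the first set, the median differences of immediate early and inducible genes were 0.09 and -0.08 in FR2 against FR1. They were -0.22 and 0.28 in FR3 Klrg1- replicates 1 and 2 against FR2, and -0.10 and 0.16 against FR1. The part of the immediate early genes in the chaperone difference was not tested. Foxp3 also differed between the sets, at 10.65 to 10.93 in the first and 9.63 to 9.95 in the second. The other Treg markers did not all go that way. Il2ra read 10.12 to 10.90 and 11.07 to 11.17, Ctla4 12.33 to 13.00 and 12.22 to 12.25, and Ikzf2 overlapped. The mean of 2 erythroid markers was 5.29 to 5.68 and 5.80 to 6.21. Of these, Alas2 read 5.03 to 5.46 and 6.11 to 6.24, and Klf1 overlapped, at 5.40 to 5.90 and 5.48 to 6.17.

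Fewer chaperone genes passed the test between gates of 1 array set. Between FR2 and FR1, which differ in CD62L, 5 of 78 members passed (6.41%, against 4.26% of all genes), 1 higher and 4 lower in FR2 (1.96% and 2.3% of all genes). Among genes at or above the 40th percentile 6 of 64 members passed (9.38%, against 11.7%). Dnajb4 read 8.74 and 9.02 in FR2 and 9.53 and 9.98 in FR1 and fell by 0.88 on the log2 scale (SE 0.16, limma adjusted p = 0.00555), the largest gate difference of the 78 members within the first set. Hspe1 fell, with 9.71 and 10.05 in FR2 against 10.42 and 10.47 in FR1 (-0.57 ± 0.14, limma adjusted p = 0.0377). Dnajc15 (-0.53 ± 0.13, adjusted p = 0.0316) and Hspbp1 (-0.58 ± 0.13, adjusted p = 0.0195) fell and Dnajc1 rose (0.53 ± 0.14, adjusted p = 0.0494). All 5 calls were lost without FR1 replicate 2 and without FR2 replicate 1, and those of Hspe1 and Dnajc15 also after quantile normalisation. The other 6 inducible members lay between -0.21 and 0.26 and none passed, nor at an unadjusted p under 0.05 (7.62% of all genes higher, 9.55% lower). From the wider lists, Fkbp5 (0.78), a co-chaperone of Hsp90 in steroid receptor complexes, Bag3 (0.55), Atf6 (0.82), an ER stress sensor, Atf3 (1.03) and Egr1 (0.57) rose.

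Between FR3 Klrg1- replicates 1 and 2 and FR2, which differ in CD69, 1 member passed (1.28%, against 4.75% of all genes), 1 higher and 0 lower (2.81% and 1.94% of all genes). Among genes at or above the 40th percentile 3 of 64 members passed (4.69%, against 11.3%). The 1 member was Hspe1, with 10.52 and 10.62 against 9.71 and 10.05 (0.69 ± 0.14, limma adjusted p = 0.0113), so that Hspe1 was lowest in FR2 within the first set. Its chamber Hspd1 differed by 0.44 (adjusted p = 0.192) on the brightest probe set and by 0.73 (limma, adjusted p = 0.00795) on the other. Hspa13 was 0.77 higher but missed the threshold (adjusted p = 0.052), and at an unadjusted p under 0.05 there were 13 members higher and 0 lower, against 8.99% of all genes higher and 6.7% lower. The call of Hspe1 was lost without FR2 replicate 1 or FR3 Klrg1- replicate 1 or 2. Pdia6, a disulphide isomerase of the ER, was the only gene of the wider lists that passed (0.95 higher, limma adjusted p = 0.00082).

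Between FR3 Klrg1- replicates 1 and 2 and FR1, which differ in both markers, 4 members passed (5.13%, against 8.19% of all genes), 3 higher and 1 lower (4.39% and 3.79% of all genes). Among genes at or above the 40th percentile 5 of 64 members passed (7.81%, against 16.4%). At an unadjusted p under 0.05, 9 members were higher and 6 lower, against 1872 and 1755 of the 19938 genes. Of the inducible members 1 was higher and 2 lower at that threshold. The other probe set of Hspd1 was 0.74 higher (limma, adjusted p = 0.00346), against 0.41 for the brightest, which did not pass. Hspa13 read 8.38 and 8.34 against 7.32 and 7.84 (0.78 ± 0.21, limma adjusted p = 0.0323), Dnajc1 8.39 and 8.58 against 7.71 and 8.02 (0.62 ± 0.14, adjusted p = 0.0112) and Hspb1 6.39 and 6.56 against 5.98 and 5.91 (0.53 ± 0.13, adjusted p = 0.0218), all higher in FR3. Dnajc15 read 7.70 and 7.49 against 8.32 and 8.23 and was lower (-0.68 ± 0.13, adjusted p = 0.00305). Within the first set Dnajc15 thus read highest in FR1, with FR2 at 7.80 and 7.69. The difference between FR2 and FR3 Klrg1- replicates 1 and 2 did not pass the threshold. Fkbp5 (1.01), Atf3 (1.34), Atf6 (0.72), Pdia6 (0.64) and Pdia4 (0.50) were higher in FR3 and Jun (-0.62), Ier2 (-0.52) and Eif2ak3 (-0.45) lower. These 3 gate comparisons share their arrays pairwise, so they are not independent. All 4 calls were lost without FR3 Klrg1- replicate 2, and those of Hspa13, Dnajc1 and Hspb1 also without FR1 replicate 1. No gate call of a member was kept under every alternative run, and each was lost when 1 mean was fitted to all 4 FR3 Klrg1- arrays.

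**Figure D4:**
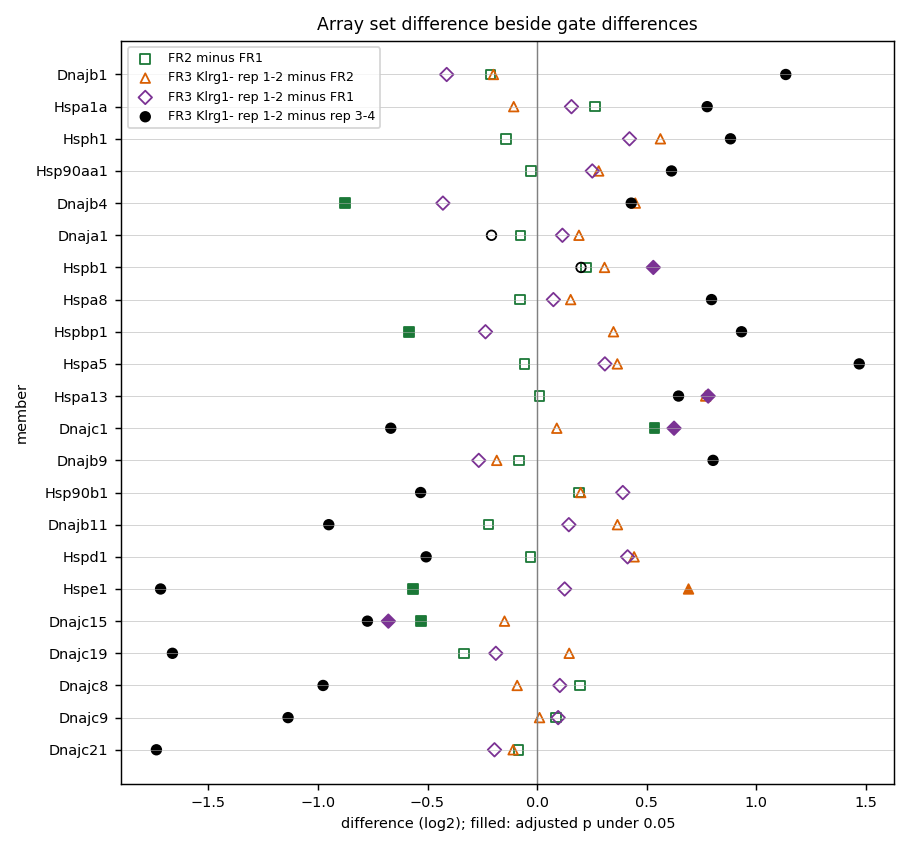
Differences on the log2 scale (x axis) of 22 members (y axis): FR2 minus FR1 (squares), FR3 Klrg1- replicates 1-2 minus FR2 (triangles) and minus FR1 (diamonds), and the difference between array sets within FR3 Klrg1- (circles), filled where the adjusted p was under 0.05. The circles of Hspa5 (1.47), Hspe1 (-1.72) and Dnajc21 (-1.74) lie far outside their gate differences, while Dnajb4 differs more between FR2 and FR1 (-0.88) than between the sets (0.43).

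Set side by side, the difference between arrays of 1 label was larger than the largest of the 3 gate differences in 55 of 78 members (70.5%), against 57.3% of all genes. Among genes at or above the 40th percentile it was larger in 44 of 64 members (68.8%) and in 62.2% of all genes. By class the count was 5 of 7 inducible, 16 of 22 constitutive, 8 of 11 ER and 6 of 9 mitochondrial members. The inducible exceptions were Dnajb4 and Hspb1, and for both the largest difference lay between gates. These counts are descriptions, since the set difference and 2 of the gate differences share FR3 Klrg1- replicates 1 and 2.

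Within the second set the FR3 Klrg1+ array was compared with FR3 Klrg1- replicates 3 and 4. Among the members 2 passed (2.56%, against 4.96% of all genes), 2 higher and 0 lower (2.14% and 2.82% of all genes), and among genes at or above the 40th percentile 5 of 64 (7.81%, against 9.59%). Higher in the Klrg1+ array were Hspa2, a testis-enriched Hsp70, at 8.02 against 7.07 and 7.41 (0.78 ± 0.18, limma adjusted p = 0.0223), and Dnajc5g, at 6.21 against 5.27 and 5.17 (limma, adjusted p = 0.0209). Both Klrg1- values of Dnajc5g lay below the 25th percentile of their arrays, so no size is given for its difference, and it lay there on 6 of the 9 grouped arrays. The call of Hspa2 was lost without FR3 Klrg1- replicate 3. At an unadjusted p under 0.05, 5 members were higher and 7 lower, against 9.38% and 10.6% of all genes. None of the 7 inducible members passed, adjusted or unadjusted, and their differences lay between -0.36 (Dnajb1 and Dnajb4) and 0.20 (Hspa1a). Ern1 (0.78), the ER stress sensor Ire1, and Dusp1 (0.65) were higher and Hscb (-0.66), a mitochondrial J protein outside the naming pattern, was lower. With a single Klrg1+ array the test assumes that it varies like the other groups.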

How the data were processed

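RNA (20 to 50 ng per sample) was amplified with a NuGEN kit and read on Mouse Gene ST 1.0 arrays (Affymetrix), per the labels' protocols. The authors deposited log2 values made with RMA, per the submitters' processing notes; background correction and summarisation settings are not given in the sources used here, and no probe-level values were used. Of 35556 probe sets, 21789 carried 1 gene symbol, 1621 several and 12146 none in the platform table; only the first were used, and the brightest probe set stood for each of 19938 genes. The 78 members came from 101 probe sets.

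A linear model with 5 means (FR1, FR2, FR3 Klrg1- replicates 1-2, FR3 Klrg1- replicates 3-4, FR3 Klrg1+) was fitted to the 9 grouped arrays with limma 3.58.1 in R 4.3.3 (lmFit, eBayes), with Benjamini-Hochberg adjustment over all genes and a threshold of 0.05. The script was tested on simulated data. Standard errors are those of the moderated fit. Precision is limited by the number of arrays. Named genes were all inducible members and heat shock factors, a fixed choice per class, and in each comparison up to 10 members per direction with the largest changes among called members whose groups do not overlap; from the wider lists up to 4 per list and direction. Members, classes and lists were chosen with earlier results of these data known. Promoter sequences are from RefSeq. Alternatives covered normalisation, probe set choice, low-intensity filter, intensity trend, array weights, the arrays fitted, a replicate block and each array left out.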

Additional observations from a re-analysis of the deposited data

How the results depend on the processing

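Between the array sets, 16 members were higher and 26 lower; without 1 array these counts were 9 to 15 and 20 to 26, and with a log2 difference of at least 1 also required they were 2 and 8. Under that requirement every gate count was 0, as it was with 4 group means over both sets. FR2 against FR1 (1 higher, 4 lower) gave 0 higher with every probe set tested, 2 lower after quantile normalisation, and 0 to 1 higher and 0 to 5 lower without 1 array. FR3 Klrg1- replicates 1-2 against FR2 (1 higher, 0 lower) gave 4 higher with an intensity trend, 3 without dim genes, with array weights or with only the arrays compared, and 0 to 3 higher and 0 to 0 lower without 1 array. Against FR1 (3 higher, 1 lower) it gave 0 to 3 and 0 to 2 without 1 array. FR3 Klrg1+ against replicates 3-4 (2 higher, 0 lower) gave 4 higher after quantile normalisation, 1 lower with the trend, 2 lower without dim genes, and 2 to 3 and 0 to 2 without 1 array. The cause of these moves was not tested. The share of all genes called was counted only for the main fit and the fit without dim genes. Of the called members named, 21 of 29 kept the set difference under every alternative. For the gate differences, 0 of 5, 0 of 1, 0 of 4 and 0 of 2 did so. None of these called differences reversed direction under an alternative, which leaves out differences that were not called. The median over all genes went from -0.02 to 0.03 in the set difference under quantile normalisation, and lay between -0.01 and 0.02 in the gate comparisons.

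The labels do not say what a replicate number shares. Deviations of same-numbered replicates correlated over all genes at 0.181 (FR1, FR2), 0.144 (FR1, FR3 Klrg1-) and 0.023 (FR2, FR3 Klrg1-), so the numbers were not taken to pair the arrays; over the 78 members the values were 0.448, 0.283 and 0.26, and over the 7 inducible members 0.725, 0.51 and 0.579. With the replicate block, FR2 against FR1 gave 2 higher and 7 lower, FR3 Klrg1- against FR2 6 higher, and against FR1 7 higher and 6 lower. The share of all genes called with the block was not counted, so these counts have no background. Of the 7 inducible members, the block gave 1 lower in FR2 against FR1 and 1 higher in FR3 Klrg1- against FR2. Against FR1 it gave 2 higher and 2 lower. Without the block these counts were 1 lower, 0, and 1 higher, so the inducible calls between gates depend on this choice. Replicate 2 exceeded replicate 1 in all 3 groups for 21 of 78 members (26.9%) and 16.2% of all genes.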

Other observations

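The array that entered no comparison read 7.73 for Dnajb1, 6.34 for Hspa1a, 8.70 for Hsph1, 12.17 for Hspa8, 10.94 for Hspa5 and 11.94 for Hspe1. The mean of the 7 inducible members on it was 8.64 and that of the 14 immediate early genes 8.55. For Klrg1 it read 12.41, where the FR3 Klrg1+ array read 12.33 and the other 8 grouped arrays 5.43 to 7.47. Its title and its marker label disagree, and its group was not taken from these values.

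Hsph1 differed within each group of the first set, with replicate 2 above replicate 1 in FR1 (9.90 and 9.12), FR2 (9.79 and 8.95) and FR3 Klrg1- (10.22 and 9.64). Hsp90aa1 showed the same order in these 3 groups, at 12.07 and 11.95, 12.14 and 11.82, and 12.38 and 12.14.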
